A study of Ovis aries with 10 samples.

Results

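The genes described here mark Schwann cell precursors and glia in the fetal adrenal gland of the sheep. They are SOX10, S100B, FOXD3, ERBB3, CDH19, MBP and NGFR, chosen by name, and 6 of the 7 have a row among the 19316 rows of the authors' deposited table of differential expression. MBP, which codes for myelin basic protein, had no row under that symbol and was not analysed here. RNA was taken from adrenal glands at 102 days of gestation, and 10 libraries were sequenced. In the endotoxin group 5 libraries are labelled with an injection of endotoxin, the lipopolysaccharide of Gram-negative bacteria, and in the control group 5 are labelled with an injection of saline solution. Each group held 3 female and 2 male libraries, and breed, dose, site of injection and time since injection are not given in the sources used here.

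Schwann cell precursors are neural crest cells that travel along growing nerves and depend on neuregulin from axons, which they sense through ERBB3 paired with ERBB2. They give rise to Schwann cells and melanocytes, and lineage tracing in the mouse showed that many chromaffin cells of the adrenal medulla also come from them. SOX10 and FOXD3 are transcription factors of the crest and its glia. NGFR is the low-affinity neurotrophin receptor, CDH19 is a cadherin of precursors and immature Schwann cells, and S100B is a calcium-binding protein of glia. Some of them are also made by other cells, NGFR by mesenchyme, S100B by fat cells and ERBB3 by epithelium.

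Libraries held between 12494386 and 18324516 estimated counts. The tables with 1 value per library carry cattle-type gene IDs with no symbols beside them, so the named genes have group means and a fitted error but no value per library, and whether the groups overlap in any of them could not be seen. In the authors' deposited table the groups are called A and B, and B was read as endotoxin from the series title. Changes of at least 8-fold in mean TPM plus 1 were mostly upward with endotoxin in the labelled TPM table (16 higher, 3 lower) and in B in the authors' deposited table (19 higher, 3 lower). If B were control, every direction below would turn. Endotoxin replicate 3 and control replicate 5 stood apart, with 21 and 23 gene IDs at 5 TPM or more and at least 3 times the highest of any other library, against 0 to 5 such IDs in each of the others. TPM is abundance per transcript length, scaled to a fixed total in each library, so it can be compared between genes.

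Of 8 glial markers, which add FABP7 to the 7 genes, 7 were measured and all 7 had at least 1 TPM in both groups. S100B was the most abundant of the 6 glial genes. Its mean was 175 TPM in the endotoxin group and 197 TPM in the control group of the authors' deposited table, and its mean over both lay above that of 96.0% of all rows. NGFR followed at 36.4 TPM with endotoxin and 42.7 TPM in control, and SOX10 at 14.7 TPM with endotoxin and 11.5 TPM in control, in the authors' deposited table. The other 3 lay close together near the middle of the table. FOXD3 had a mean of 5.70 TPM with endotoxin and 5.47 TPM in control, CDH19 had 5.36 TPM with endotoxin and 5.58 TPM in control, and ERBB3 had 5.10 TPM with endotoxin and 4.71 TPM in control, all in the authors' deposited table. Whether these neighbours in the order differ beyond the spread between libraries cannot be said, since the means carry no error. S100B alone made up 72.2% of the summed TPM of the 6 genes with endotoxin and 73.8% in control, so that sum, 242 TPM with endotoxin and 267 TPM in control in the authors' deposited table, is mainly S100B.

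**Figure D1:**
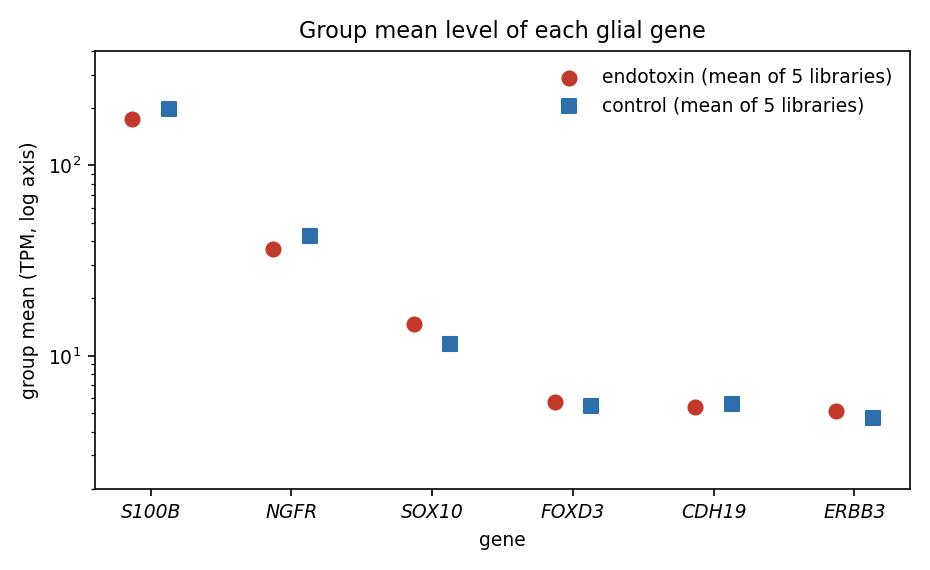
Group mean level in TPM (log axis) of the 6 measured glial genes, with endotoxin as circles and control as squares. Each point is the authors' mean of 5 libraries and has no error bar because no value per library is named; S100B lies highest in both groups at 175 and 197 TPM, and the endotoxin and control points of each gene lie close together.

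None of the 6 glial genes passed the test between endotoxin and control, by the authors' deposited table, whose adjusted p was read against a threshold of 0.05. At that threshold 1.72% of the 19236 rows with a p were called, and at an unadjusted p under 0.05, where none of the 6 passed either, 12.9% were. Fold changes here are those of the authors' count model, on the log2 scale as endotoxin over control. Their median over the 6 genes was 0.12, against 0.01 over all rows with a p in the authors' deposited table. In bulk tissue, a change in the number of glial cells and a change in RNA per glial cell cannot be told apart.

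Among the transcription factors, SOX10, which specifies and maintains the glial lineage, had the largest value of the 6. It stood at 0.49 ± 0.38 (SE; adjusted p = 0.676) in the authors' deposited table, a 1.40-fold ratio with a 95% interval from 0.835 to 2.35. FOXD3, which keeps crest cells and precursors undifferentiated, was at 0.17 ± 0.37 (SE; adjusted p = 0.95) by the authors' deposited table, with an interval from 0.686-fold to 1.85-fold. Both point estimates lay above 0 and both intervals held no change.

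Of the receptors, ERBB3 was at 0.23 ± 0.38 (SE; adjusted p = 0.918) by the authors' deposited table, with an interval from 0.705-fold to 1.96-fold. NGFR, which can act alone or beside the Trk receptors, was at -0.06 ± 0.42 (SE; adjusted p = 0.974) by the authors' deposited table, with an interval from 0.54-fold to 1.70-fold. The receptor for neuregulin and that for neurotrophins therefore had point estimates on either side of 0 and both intervals held no change.

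The adhesion molecule CDH19 was at 0.07 ± 0.43 (SE; adjusted p = 0.972) by the authors' deposited table, with an interval from 0.584-fold to 1.89-fold. S100B was at -0.06 ± 0.43 (SE; adjusted p = 0.979) by the authors' deposited table, with an interval from 0.538-fold to 1.71-fold. S100B shares a protein family with the calprotectin genes of neutrophils, and S100A8 was at 505 TPM with endotoxin and 7.64 TPM in control in the authors' deposited table, a rise of 6.18 ± 0.42 (SE; adjusted p = 1.65e-44) on the log2 scale. On the log2 ratio of mean TPM plus 1, the deposited log2 column, CDH19 was at -0.05 and so on the other side of 0. The other 5 genes kept their sign on that scale, SOX10 at 0.33, ERBB3 at 0.095, FOXD3 at 0.05, S100B at -0.17 and NGFR at -0.22 in the authors' deposited table.

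**Figure D2:**
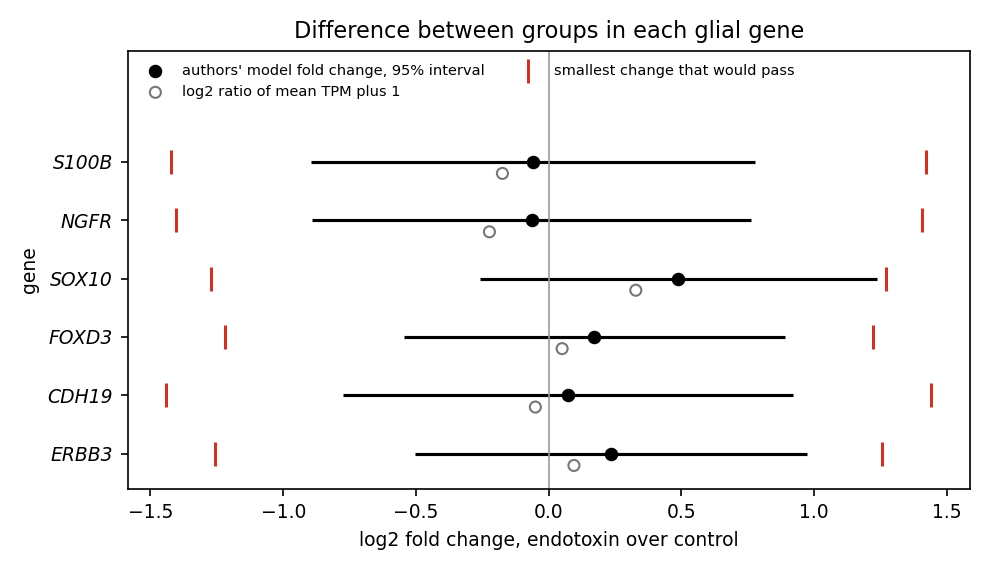
Log2 fold change of each glial gene, endotoxin over control, from the authors' count model (filled points, with 95% intervals as lines) and from mean TPM plus 1 (open points); the upright marks show how far from 0 a value with that error had to lie to pass. Every interval crosses 0, and SOX10 at 0.49 lies farthest from it.

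The data bound the size of a difference rather than showing its absence. A row had to reach an absolute score (fold change over its SE) of 3.33 to be called in the authors' deposited table. With their errors, CDH19 would have had to be 2.72-fold higher to pass, S100B 2.68-fold, NGFR 2.65-fold, SOX10 2.41-fold, ERBB3 2.39-fold and FOXD3 2.33-fold. A fitted halving or doubling of any of the 6 would thus have missed the threshold. Over the 6 genes the 95% intervals reached from 0.538-fold to 2.35-fold.

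The errors of the glial genes were large for their levels. The SE of the log2 fold change lay between 0.37 for FOXD3 and 0.43 for CDH19, or 1.80 to 2.13 times the median of 0.20 over rows that average at least 1 TPM. Between 87.4% and 92.2% of such rows had a smaller error than each of the 6. Among the 7640 rows with at least 10 TPM and a p in the authors' deposited table, 97.1% had a smaller error than S100B, 96.9% than NGFR and 95.5% than SOX10. S100B thus joined a level among the highest of the table to an error among the largest at such levels.

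**Figure D3:**
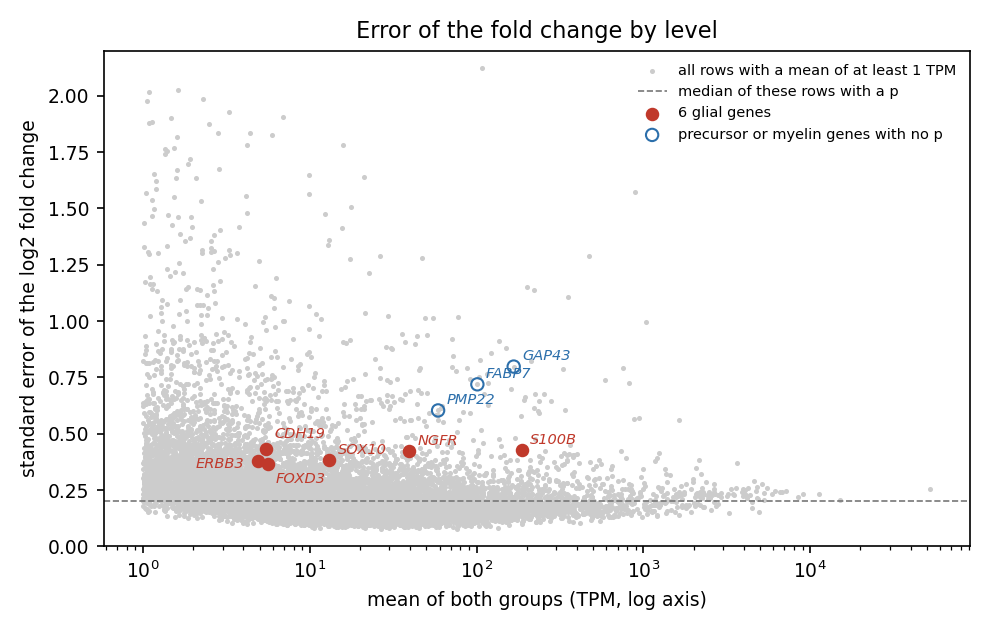
Standard error of the log2 fold change against mean TPM (log axis) for all rows with at least 1 TPM (grey), the 6 glial genes (filled) and 3 genes of the precursor and myelin lists with no p (open). The 6 glial genes lie between 0.37 and 0.43, above the dashed median of 0.20; 21 rows with an error over 2.2 lie outside the plot.

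Other genes of the lineage were read from 5 lists with 101 entries, of which 80 had a row in the authors' deposited table and 77 a p. None of the 77 passed in either direction, against 1.72% of all rows with a p. At an unadjusted p under 0.05 there were 5 higher and 3 lower with endotoxin, against 12.9% of all rows with a p. For 3 of the genes the authors' p and adjusted p are set to 1 and were treated as no p. These were FABP7, a fatty acid binding protein of Schwann precursors, GAP43, a growth-associated protein of axons and immature Schwann cells, and the myelin protein PMP22. They make up 3.75% of the 80 measured genes of the 5 lists, while 0.414% of all rows have no p. FABP7 was at 111 TPM with endotoxin and 90.9 TPM in control, GAP43 at 175 TPM with endotoxin and 158 TPM in control, and PMP22 at 64.5 TPM with endotoxin and 53.1 TPM in control, in the authors' deposited table. All 3 means were higher with endotoxin, and the errors of their fold changes, from 0.60 to 0.80, exceeded those of the 6 glial genes. The part of any single library in these means could not be seen.

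Of the 14 measured transcription factors of the crest and glia, none passed, and 10 lay below 0 with a median of -0.10 in the authors' deposited table. The most abundant, HES1, a Notch target, and SNAI2, a crest factor, were at -0.10 ± 0.22 (SE; adjusted p = 0.957) and -0.24 ± 0.20 (SE; adjusted p = 0.693) in the authors' deposited table. TFAP2B, a factor of the crest and of sympathoadrenal cells, had the largest score, with 20.2 TPM with endotoxin and 35.7 TPM in control and a fold change of -0.63 ± 0.30 (SE; adjusted p = 0.322) in the authors' deposited table. SOX9 and SOX8, the other members of the SOX group that holds SOX10, were at 0.36 ± 0.23 and 0.00 ± 0.34 (SE), and their adjusted p was 0.559 and 0.999, in the authors' deposited table.

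Markers of precursors and immature glia made up a further list, in which 23 of 25 measured genes had a p and none passed. The median was 0.20, with 14 above 0 in the authors' deposited table, and 0.05 on the log2 ratio of mean TPM plus 1. At an unadjusted p under 0.05 there were 4 higher and 0 lower of the 23, against 12.9% of all rows with a p. CRYAB, a small heat shock protein of glia and muscle, had the largest score at 0.34 ± 0.16 (SE; adjusted p = 0.306), and VIM, an intermediate filament of glia and mesenchyme, the highest mean at 519 TPM with endotoxin and 446 TPM in control, in the authors' deposited table.

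In the myelin list 12 genes were measured and 11 had a p, none of which passed, with a median of 0.19 in the authors' deposited table. That median is the value of PMP2, at 0.177 TPM with endotoxin and 0.174 TPM in control, whose SE was 3.06. Of the 12 genes, 7 averaged at least 1 TPM. On the log2 ratio of mean TPM plus 1 the median of the list was 0.03. GLDN, the gliomedin that gathers channels at nodes of Ranvier, came nearest, with 2.92 TPM with endotoxin and 1.22 TPM in control and a fold change of 1.36 ± 0.45 (SE; adjusted p = 0.0874) in the authors' deposited table. NCMAP, a myelin-associated protein, lay on the other side, with 16.5 TPM with endotoxin and 37.6 TPM in control and a fold change of -1.03 ± 0.47 (SE; adjusted p = 0.297) by the authors' deposited table. CNP, a nucleotide phosphodiesterase of myelinating cells, was at 0.08 ± 0.21 (SE; adjusted p = 0.967) in the authors' deposited table.

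**Figure D4:**
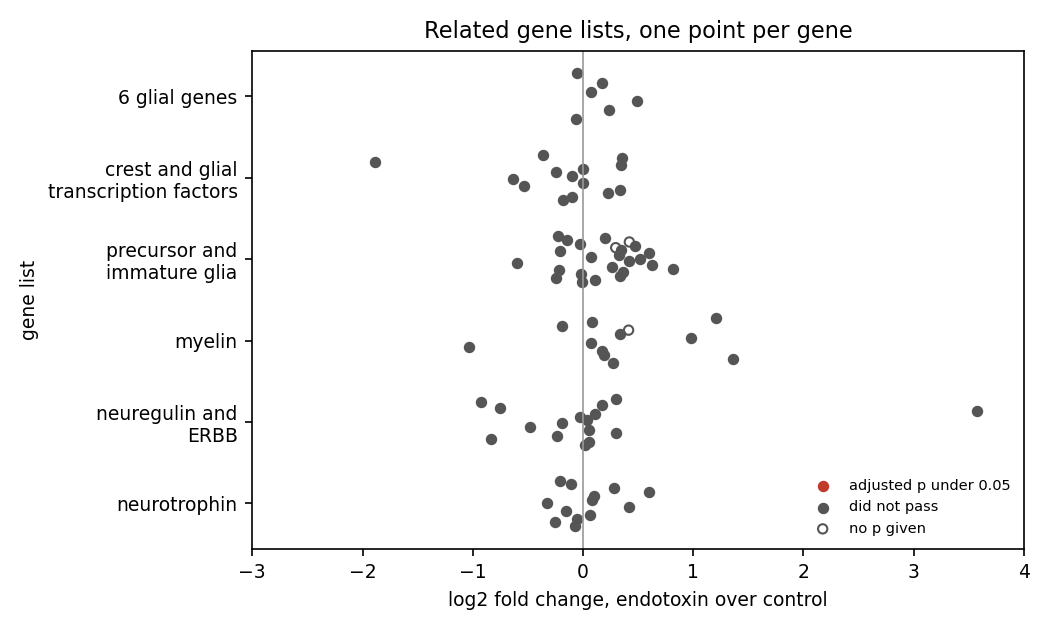
Log2 fold change, endotoxin over control, of each measured gene in the 6 glial genes and 5 related lists, with open points for genes with no p. No point passed the threshold; the point at the far right of the neuregulin row is EREG, which is listed at 0 TPM in the control mean, so its fitted value is no measure of a fold.

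Around ERBB3, none of 16 measured genes of neuregulin and ERBB signalling passed, with a median of 0.03 in the authors' deposited table. ERBB2, the partner receptor, was at 7.54 TPM with endotoxin and 8.06 TPM in control, a fold change of 0.02 ± 0.24 (SE; adjusted p = 0.99) in the authors' deposited table. GAB1, a docking protein downstream of receptor kinases, had 6.38 TPM with endotoxin and 9.73 TPM in control, at -0.48 ± 0.15 (SE; adjusted p = 0.0522) in the authors' deposited table. That value misses the threshold narrowly, and with the adjustment over rows of at least 1 TPM only it was 0.0437. The most abundant genes, the adaptor SHC1 and the feedback inhibitor ERRFI1, were at -0.03 ± 0.10 (SE; adjusted p = 0.972) and 0.05 ± 0.33 (SE; adjusted p = 0.972) in the authors' deposited table. NRG1, the neuregulin of axons, had no row under that symbol and was not analysed here.

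Around NGFR, none of 13 measured neurotrophin genes passed, with a median of -0.05 in the authors' deposited table. MAGED1 and BEX3, proteins that bind the tail of NGFR, were at -0.21 ± 0.12 (SE; adjusted p = 0.454) and -0.11 ± 0.21 (SE; adjusted p = 0.941), and ARHGDIA, which NGFR also binds, at 0.28 ± 0.19 (SE; adjusted p = 0.595), in the authors' deposited table.

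Markers of other cells that could share the glial genes were read in the same way, and their part in the values above was not tested. For central glia, none of 4 measured genes passed, MOG was at 0.663 TPM with endotoxin and 0.588 TPM in control in the authors' deposited table, and OLIG1, OLIG2 and MOBP had no row under those symbols. For melanocytes, none of 9 genes passed and the summed means were 22.0 TPM with endotoxin and 21.0 TPM in control, of which MLANA gave 11.6 and 8.23 TPM in the authors' deposited table. KIT, a receptor kinase of melanocytes and mast cells, had 3.66 TPM with endotoxin and 6.32 TPM in control, at -0.67 ± 0.31 (SE; adjusted p = 0.327) by the authors' deposited table. TYR and DCT were below 1 TPM in both groups. PMEL was at 2.76 TPM with endotoxin and 2.32 TPM in control, and TYRP1 at 1.26 and 1.32 TPM, in the authors' deposited table. Of the 9 melanocyte genes, 4 averaged at least 1 TPM. Of the 4 measured epithelial genes, KRT8 and EPCAM had the highest means, and 2 genes averaged at least 1 TPM. CDH1, which has no p, was at 0.398 TPM with endotoxin and 0.362 TPM in control in the authors' deposited table. The 4 epithelial genes summed to 7.95 TPM with endotoxin and 9.22 TPM in control.

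Fat cell markers, beside which S100B is to be read, summed to 215 TPM with endotoxin and 287 TPM in control over 6 genes in the authors' deposited table, and FABP4 made up most of both sums. None passed, but all 6 lay below 0, with a median of -1.97. ADIPOQ, the fat cell hormone adiponectin, had 6.59 TPM with endotoxin and 25.0 TPM in control, at -2.06 ± 1.78 (SE; adjusted p = 0.729) in the authors' deposited table. Mesenchyme markers, beside which NGFR is to be read, summed to 1160 TPM with endotoxin and 1767 TPM in control over 10 genes in the authors' deposited table. None of them passed and 8 lay below 0, with COL1A1 at -0.58 ± 0.40 (SE; adjusted p = 0.59) and COL1A2 at -0.67 ± 0.38 (SE; adjusted p = 0.467) in the authors' deposited table.

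Markers of chromaffin cells, which can arise from the precursors, were read next. The 12 measured genes summed to 10767 TPM with endotoxin and 10836 TPM in control in the authors' deposited table. None of the 11 with a p passed, and of these 4 lay above 0 and 7 below, with a median of -0.03. At an unadjusted p under 0.05 there were 3 higher and none lower, against 12.9% of all rows with a p. The 3 were PNMT, which makes adrenaline, at 1307 TPM with endotoxin and 330 TPM in control and a fold change of 2.07 ± 0.73 (SE; adjusted p = 0.123), the opioid precursor PENK at 0.77 ± 0.34 (SE; adjusted p = 0.282) and the vesicle transporter SLC18A1 at 0.53 ± 0.26 (SE; adjusted p = 0.368), by the authors' deposited table. CHGA, the granule protein chromogranin A, was at -0.03 ± 0.24 (SE; adjusted p = 0.982), and CHGB at -0.43 ± 0.28 (SE; adjusted p = 0.559), in the authors' deposited table. Among markers of bridge cells and neuroblasts, 1 of 10 genes with a p fell, against 0.426% of all rows with a p. This list was chosen with earlier results of these data known, so its share cannot show an excess. The gene was NEUROD4, a neuronal transcription factor, at 0.584 TPM with endotoxin and 2.16 TPM in control. Its fold change was -1.80 ± 0.53 (SE; adjusted p = 0.0401) by the authors' deposited table. The abundant STMN2 and HAND2 were at -0.23 ± 0.38 (SE; adjusted p = 0.921) and -0.30 ± 0.30 (SE; adjusted p = 0.79), and the median of this list was -0.29, in the authors' deposited table.

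In the same comparison 5 of 7 cortex markers and 7 of 8 measured neutrophil markers rose and none fell, against 1.29% of rows with a p that rose. These lists too were chosen with earlier results of these data known. Of the other blood and vessel lists, 1 of 8 macrophage genes (MARCO) and 1 of 4 erythroid genes (HBM) rose, and none of 7 lymphocyte and 6 endothelial genes passed. With the adjustment over rows of at least 1 TPM, 0 erythroid genes rose. All 8 macrophage, 6 endothelial and 4 erythroid genes and 6 of the 7 lymphocyte genes lay above 0. The neutrophil markers summed to 1960 TPM with endotoxin and 50.7 TPM in control, and the cortex markers to 6378 TPM with endotoxin and 2543 TPM in control, in the authors' deposited table. TPM is a share of a fixed total, and these sums are parts of about 1000000 TPM in each group. Their part in the glial levels was not tested.

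**Figure D5:**
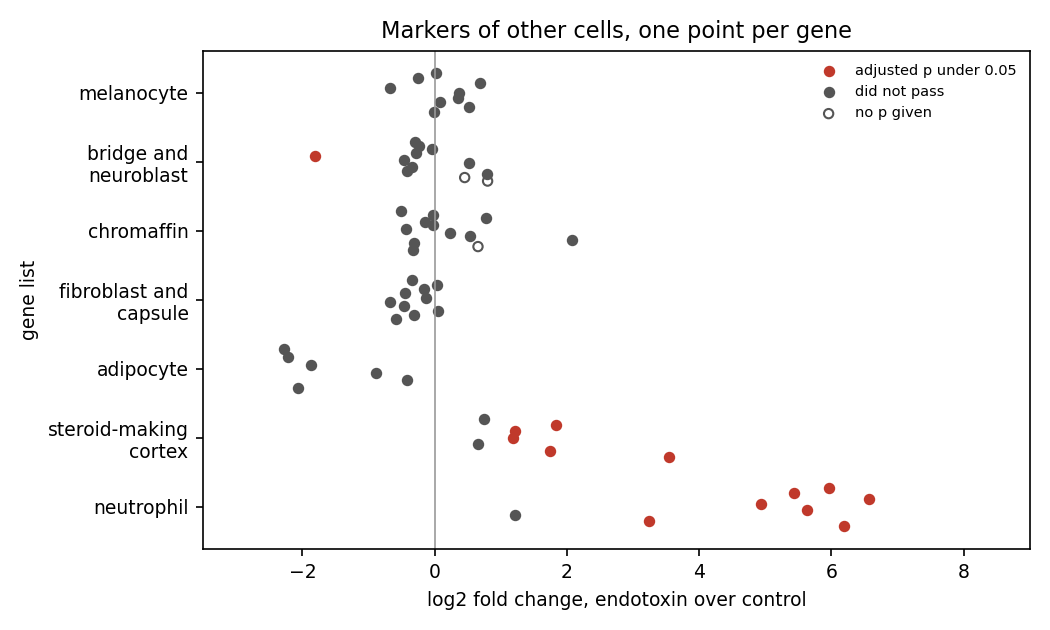
Log2 fold change, endotoxin over control, of each measured marker gene in 7 lists of other cells, with filled red points for an adjusted p under 0.05 and open points for no p. Neutrophil and cortex markers lie to the right, all 6 fat cell markers lie left of 0 without passing, and NEUROD4 is the red point at -1.80.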

How the data were processed

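Per the submitters' processing notes, the tools were Salmon 0.9.1, fastp 0.19.4 and DESeq2 and the build was Oar_v3.1, with no role stated for any. The authors deposited estimated counts and TPM per library, used here for totals, for libraries that stand apart and for the direction of the groups. None of their 20781 gene IDs is in the reference gene table, so no test per library could be made of a named gene. The authors' deposited table of differential expression gives, per the file headers, group means, a standard error, log2 values and a score for each row, besides its p-values. The means were read as TPM, since each column sums to about 1000000. Its p equals the two-sided normal p of the score in all but 80 rows, where it is 1. Fold changes are the score times the standard error, and intervals are 1.96 standard errors to each side. Where a symbol has 2 rows, the one with the higher mean was used. That table's pathway companion was not used for values.

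Python 3.11.15, pandas 2.3.3 and SciPy 1.17.1 were used, and the adjustment and interval steps were tested on simulated data. Genes named outside the 6 are the 2 most abundant of a list, those that passed and, in the 5 related lists, that with the largest score. Apart from these, FABP7, SOX8, SOX9, ERBB2, NCMAP, PMP2, PNMT, PENK, SLC18A1, EREG, MOG, TYR, DCT, PMEL, TYRP1 and CDH1 were chosen for their role or after their values were seen. The members and lists were chosen with earlier results of these data known, and a few listed genes are not reported here. The labels do not say that libraries came from separate ewes, so p-values measure the spread between these libraries.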

Additional observations from a re-analysis of the deposited data

How the results depend on the processing

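The count of 0 glial genes past the threshold was also 0 when p-values were adjusted again over all rows with a p or over rows of at least 1 TPM, at an adjusted p under 0.1 and at an unadjusted p under 0.05. In the 5 related lists the count was 0, and 0 when adjusted again over all rows with a p, but 1 over rows of at least 1 TPM (GAB1), 2 at an adjusted p under 0.1 (GAB1 and GLDN) and 8 at an unadjusted p under 0.05. Fewer rows are adjusted over in the first of these and the threshold is looser in the others. The sign of CDH19 turned on each scale of mean TPM, with a pseudocount of 1, of 0.1 or none, and no sign turned after the median of rows with at least 1 TPM was subtracted; the largest shift was 0.164. The median of rows that average 1 TPM or more was -0.10 for the ratio of mean TPM, against 0.01 for the model. No glial gene has a second row. No paired analysis was possible because the named genes have no value per library. For the same reason the planned fits per library with edgeR or DESeq2, without a filter, with sex, with a block or leaving out a library were not run, so the weight of endotoxin replicate 3 or control replicate 5 in these values was not tested.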

Other observations

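At 10 TPM or more, 27 of 7667 rows of the authors' deposited table have no p. Besides FABP7, GAP43 and PMP22, those with a symbol include genes of neurons. They were named after their values were seen and were not tested. NPY, a neuropeptide of sympathetic cells, had a mean of 544 TPM with endotoxin and 394 TPM in control in the authors' deposited table. SNCG, a synuclein of peripheral neurons, had 456 TPM with endotoxin and 249 TPM in control, and GNG3, a G protein subunit of neurons, had 229 TPM with endotoxin and 170 TPM in control, in the authors' deposited table. The tubulins TUBB3 and TUBB4A were at 40.8 and 18.6 TPM with endotoxin and at 33.5 and 12.7 TPM in control in the authors' deposited table. The errors of the log2 fold change of these 5 genes lay between 0.91 and 1.41. All 5 means were higher with endotoxin, but the 5 were picked from these rows. STUM, AGPAT2 and THRSP, also at 10 TPM or more with no p, had lower means with endotoxin. The shared direction of the 5 therefore does not describe such rows as a whole.

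A further set with no p was higher in control and codes for enzymes of the exocrine pancreas. CPA1, a carboxypeptidase, had 0.109 TPM with endotoxin and 8.71 TPM in control, and CEL, a lipase, had 0.0708 TPM with endotoxin and 3.11 TPM in control, in the authors' deposited table. CLPS, a cofactor of pancreatic lipase, had 1.87 TPM with endotoxin and 17.9 TPM in control in the authors' deposited table. In the labelled TPM table, which has no symbols, control replicate 5 held 9 gene IDs at 20 times or more the highest value of any other library, and each other library held at most 2. Whether any of these IDs belongs to the enzymes above could not be seen, and a link was not tested.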
